A study of Mus musculus with 2 samples.

Results

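The lysosomal cathepsins Ctsa, Ctsb, Ctsc, Ctsd, Ctse, Ctsh, Ctsk, Ctsl, Ctss and Ctsz were followed in pre CFU-E, the erythroid progenitors that come before the erythrocyte colony-forming unit, on a wild-type (WT) array and an ESAM-KO array. These 10 genes were taken by name, under a rule that uses no measured value, from the 20660 genes that could be named on the array, and 12 probes measured them. ESAM is the endothelial cell-selective adhesion molecule, and the comparison asked how gene expression in stressed erythroid progenitors differed without it. Mice of the C57BL/6 strain, aged 8 to 12 weeks, received 120 mg/kg of the antimetabolite 5-fluorouracil (5-FU) and were sacrificed on day 8. Bone marrow of 3 mice per genotype was pooled, and cells were sorted that lacked lineage markers (Lin-) and Sca1, were FCgRII/III-/Lo and CD41Lo, and carried c-Kit, endoglin and CD150. Both groups had received 5-FU, and no array of untreated mice was analysed here. The sources used here name no promoter or Cre for the knockout.

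Each genotype had 1 array, so no value below has a replicate array or a p-value, and any SD is over spots of a probe. Differences between genotypes, pools, sorts and amplifications cannot be told apart. Values are the scanner software's background-subtracted intensities. Ratios are ESAM-KO over WT after each array was divided by the 75th percentile of its intensities, which was 201 for WT and 251 for ESAM-KO, and this scaling changed every log2 ratio by -0.32. Spots were above background in 57.3% of cases for WT and 61.1% for ESAM-KO, and 0 spots were saturated on either. A ratio could be given for 14136 genes, with a median log2 ratio of 0.00056. Among 199 probes with 9 or 10 measured spots per array, the SD of the log2 ratio over spots had a median of 0.12 and a 95th percentile of 0.40. The intensity of Esam was 27.4 for WT and 20.6 for ESAM-KO, and its log2 ratio was -0.73 with a scanner error of 0.31. Where its probe lies relative to the deleted part of the gene is not given in the sources used here, so that this reading does not check the genotype. The early erythroid regulators Gata1, Klf1 and Epor were above background on both arrays.

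Cathepsins are proteases of the acid compartments of the cell. Most are made as inactive proenzymes, reach the lysosome through mannose 6-phosphate receptors, and become active when the propeptide is removed at acid pH. They fall into aspartic proteases (Ctsd and Ctse), cysteine proteases of the papain family (Ctsb, Ctsc, Ctsh, Ctsk, Ctsl, Ctss and Ctsz) and a serine carboxypeptidase (Ctsa). Ctse is the member best known from red cells, where the protein is found at the membrane of erythrocytes.

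Among the cathepsins, Ctse was lower and Ctss was higher in ESAM-KO pre CFU-E, each by more than 2-fold, and the other members with a ratio lay within 2-fold. The levels of Ctsb, Ctsd and Ctsz, the broadly expressed housekeeping enzymes of the lysosome, were above background in both genotypes. Of the 10 members, 8 were above background on both arrays, Ctss was above background on the ESAM-KO array alone, and Ctsk on neither. Past 2-fold were 2 of the 9 members with a ratio (22.2%), beside 15.4% of all genes with a ratio, of which 6.99% were higher and 8.43% lower. With 9 members this share is near that background, and it says nothing particular about the list. Of the 8 members above background on both arrays, 1 was past 2-fold, beside 12.6% of such genes. At 1.5-fold, 4 of the 9 members were past the threshold (33.2% of all genes), 3 of them lower (17.6% of all genes), and at 3-fold 0 were (5.81% of all genes). The 7 members within 2-fold ran from a log2 ratio of -0.66 to 0.26, with 5 lower and 2 higher.

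**Figure D1:**
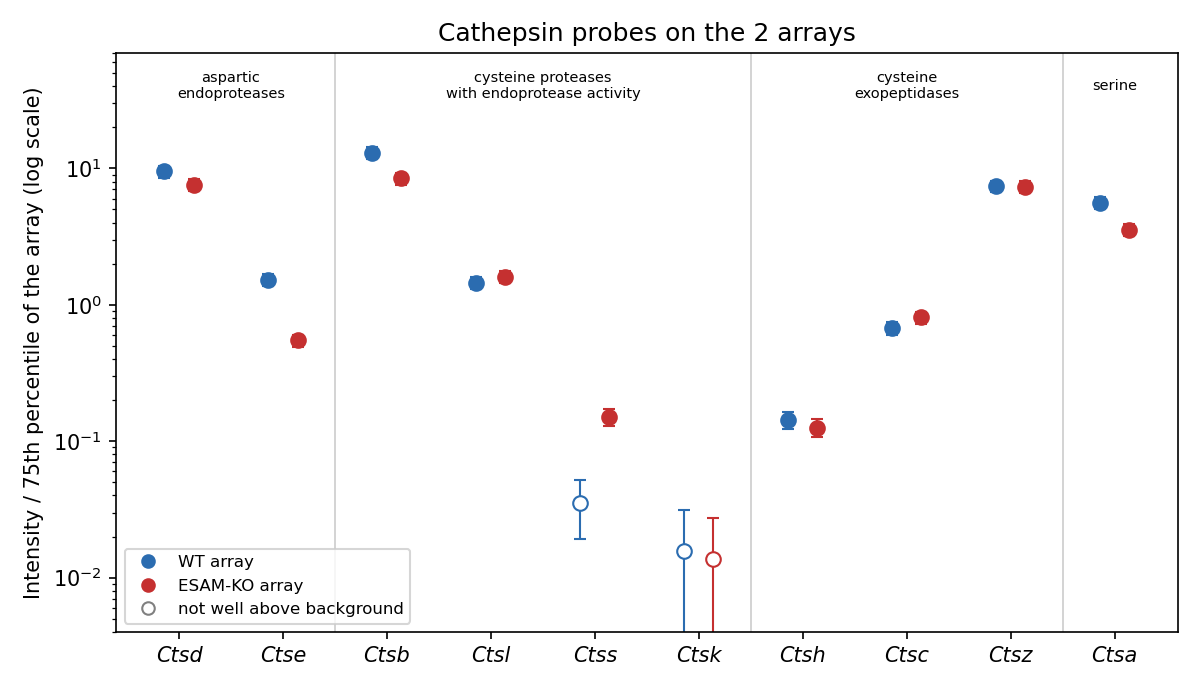
Level of each cathepsin as a multiple of the array's 75th percentile (log axis) in WT and in ESAM-KO, with the scanner software's error as bars and open symbols for spots not above background. Ctse drops from 1.53 to 0.547 and Ctss goes from 0.035 to 0.151, while heights of different genes cannot be compared because each probe has its own brightness.

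The median log2 ratio of the cathepsins was -0.20, against 0.00056 over all genes. Leaving out Ctse and Ctss, the members with the lowest and the highest ratio, cannot change this median. Of the 8 members above background on both arrays, 6 had a log2 ratio below 0. Leaving out the scaling shifts every ratio by the same amount, and then the cathepsin median was 0.12 against 0.31 over all genes, and 4 of the 8 members lay below 0. The sign of the list's median thus depends on the scaling. A shift common to all genes cannot test the list's place below the median of all genes. For 3 of these 8 members (Ctsh, Ctsl and Ctsz) the log2 ratio was smaller than its scanner error, which was between 0.20 and 0.30.

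**Figure D2:**
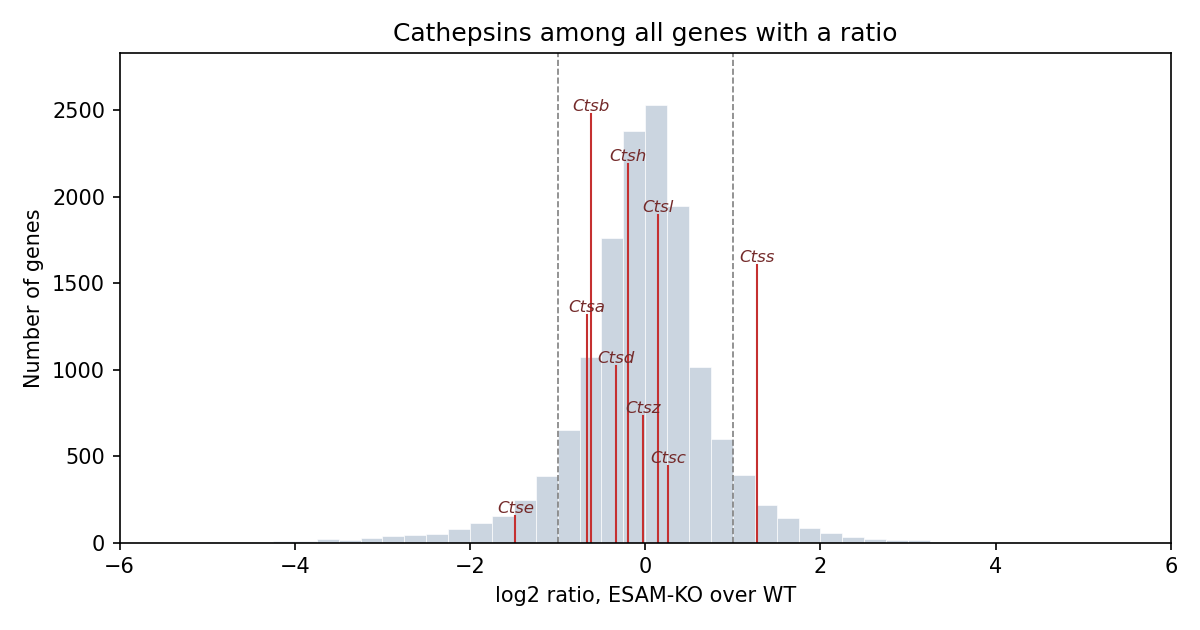
Histogram of log2 ratios, ESAM-KO over WT, for the 14136 genes with a ratio, with a red line at the ratio of each cathepsin (its height has no meaning) and dashed lines at 2-fold. Ctse lies in the left tail, where 4.07% of genes had a lower ratio, Ctss (a lower bound) in the right tail, and the other 7 members between the dashed lines.

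The aspartic proteases differed from each other. Ctse (NM_007799), an endosomal protease, read 308 ± 30.9 in WT and 137 ± 14.05 in ESAM-KO, where the error is the scanner software's for the spot. The level in ESAM-KO cells was thus 2.79-fold lower, a log2 ratio of -1.48 with a scanner error of 0.21. The difference exceeded that error, which covers the spot but not the pool, the sort or the amplification. Under the 10 alternative ways of processing, the Ctse log2 ratio lay between -1.61 and -1.10 and was past 2-fold each time. These are not 10 separate checks. Ctse has 1 probe with 1 spot, above background on both arrays, so settings for filters, outlier spots and several probes returned the same value.

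Ctse was lower beside several erythroid markers. Of 14 erythroid markers, 7 were lower past 2-fold and 0 higher (50%, beside 15.4% of all genes), with a list median of -0.84. Slc4a1, the anion exchanger of the red cell membrane, had a log2 ratio of -2.87, Hbb-bs, an adult beta globin, one of -2.52, and Trim10, a gene of terminal erythroid differentiation, one of -2.31. Alas2, the erythroid enzyme that starts heme synthesis, was 2.89-fold lower. Of the early regulators, Gata1, Klf1 and Epor, the erythropoietin receptor, differed less, with log2 ratios of -0.34, -0.32 and -0.10. The list was mixed, and no split by stage was tested. Nfe2 was 2.54-fold lower, while Ermap, Rhag and Tal1 had log2 ratios of -0.19, -0.04 and 0.32. Tfrc was 1.85-fold higher at its brightest probe. The summed level of the 14 markers, in multiples of the array's 75th percentile, was 536 in WT and 174 in ESAM-KO, or 191 and 102 without Hba-a1, the brightest, and 106 and 90.5 without Slc4a1 as well. Such a sum is carried by its brightest probes and describes a list less well than the counts do. The part of these markers in the Ctse result was not tested. In a bulk sample, fewer cells of a type and less RNA per cell cannot be told apart.

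Ctsd (NM_009983), the main aspartic endoprotease of lysosomes, was measured by 2 probes. One read 1911 ± 191 in WT and 1898 ± 190 in ESAM-KO, and the other 227 ± 22.9 and 224 ± 22.6. The raw readings were nearly equal, and after scaling the log2 ratios were -0.33 and -0.34. Both probes therefore placed Ctsd 1.26-fold lower in ESAM-KO, within 2-fold, and without scaling the log2 ratio of the first was -0.01. In the same scaled values Ctse had its log2 ratio of -1.48.

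The promoter window of Ctsd is shown because it holds CACGTG, the E-box bound by the factors Tfeb, Tfe3 and Mitf, which switch on lysosomal genes and are described below. Windows are from RefSeq, build GRCm38.p6, and run from 250 bases before the start of the gene to 50 after it. The Ctsd window is chr7:142387778-142388077 on the minus strand, and the capitals mark the E-boxes, whose first bases are at -245 and -98 from the start. The window of Ctsa on the plus strand, chr2:164833523-164833822, is shown for the same motif, with E-boxes at -12 and 6.
Ctsd: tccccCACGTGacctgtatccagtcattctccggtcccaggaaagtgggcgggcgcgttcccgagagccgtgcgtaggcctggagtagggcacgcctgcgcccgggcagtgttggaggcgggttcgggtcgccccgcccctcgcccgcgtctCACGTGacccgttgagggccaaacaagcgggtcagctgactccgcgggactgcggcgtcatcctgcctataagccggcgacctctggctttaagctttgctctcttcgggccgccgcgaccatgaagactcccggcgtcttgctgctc
Ctsa: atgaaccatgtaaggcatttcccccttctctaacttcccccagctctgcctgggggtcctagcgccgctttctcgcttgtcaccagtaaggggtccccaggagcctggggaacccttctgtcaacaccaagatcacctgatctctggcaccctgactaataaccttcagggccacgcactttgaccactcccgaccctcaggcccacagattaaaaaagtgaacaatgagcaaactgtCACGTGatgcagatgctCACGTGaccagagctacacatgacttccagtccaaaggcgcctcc
A CACGTG was present in 3 of the 8 windows of members (Ctsa, Ctsd and Ctsl) and in 7.15% of all 32851 windows. The motif reads the same on both strands. The 8 windows belong to 7 members, since Ctsa has a second window at another start, which held none of the motifs searched, and Ctsb, Ctse and Ctsh were not matched to a window. A match describes the letters of the window and is no evidence of binding.

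Of the cysteine endoproteases, Ctsb and Ctsl differed little and in opposite directions. Ctsb (NM_007798), which cuts within proteins and also removes dipeptides from their carboxyl end, read 2602 ± 260 in WT and 2119 ± 212 in ESAM-KO. Its log2 ratio was -0.61, or 1.53-fold lower, with a scanner error of 0.20. Ctsl (NM_009984), a strong endoprotease of most cells, read 291 ± 29.3 in WT and 401 ± 40.2 in ESAM-KO. The scaled log2 ratio of Ctsl was 0.14, or 1.102-fold higher, which was less than its scanner error. In the scaled values 16.7% of all genes had a lower ratio than Ctsb and 60.3% a lower ratio than Ctsl. Both stayed within 2-fold under the alternative ways of processing, Ctsb from -0.74 to -0.30 and Ctsl from 0.01 to 0.46.

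Ctss (NM_021281), the cysteine protease with which antigen-presenting cells degrade the invariant chain of MHC class II, was the member with a higher level in ESAM-KO past 2-fold. It read 7.13 ± 3.26 in WT, which was not above background, and 37.8 ± 5.10 in ESAM-KO, which was. Because the WT reading was not above background, the ratio was taken against the lowest level measured above background on the WT array. Against that level Ctss was 2.41-fold higher in ESAM-KO, a log2 ratio of 1.27. That lowest level was 12.6 as intensity and is a convention, since a probe of another gene read 13.6 in WT and was not above background. Folds given below as at least a value are bounds of this kind and leave out the error of the spots. The measured readings themselves differed by 2.09 on the log2 scale after scaling. With normexp background correction of median spot signals followed by quantile normalization the log2 ratio was 0.26 and Ctss was no longer past 2-fold. The Ctss value comes from 1 dim spot per array, and which step of that processing lowered it was not tested.

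The Ctss window, chr3:95526536-95526835 on the plus strand, is shown because it holds, close to the start, an ISRE (searched as GAAA repeated after any 2 bases) at -21 and on the other strand a PU box, GAGGAAGT, at -2, and the capitals mark them. These are motifs of interferon-regulatory factors and of the myeloid factor PU.1, and they do not overlap here.
Ctss: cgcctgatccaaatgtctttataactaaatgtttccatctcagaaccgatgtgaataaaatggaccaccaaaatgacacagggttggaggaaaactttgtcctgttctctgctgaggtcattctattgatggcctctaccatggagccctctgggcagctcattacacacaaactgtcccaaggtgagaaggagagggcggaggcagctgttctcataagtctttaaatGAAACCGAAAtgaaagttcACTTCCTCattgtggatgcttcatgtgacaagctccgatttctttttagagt
The ISRE was found in 1 of the 8 windows of members and in 3.44% of all windows, and GAGGAAGT in 2 of the 8 (Ctss and Ctsc) and in 3.20% of all windows. The motif AGATAA, bound by GATA factors, was found in 1 (Ctsz) and in 11.2% of all windows. Both strands were searched for each motif.

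Markers of macrophages and antigen-presenting cells, which are known for Ctss, were not higher as lists. Of 14 macrophage markers, 7 had a ratio, of which 1 was higher past 2-fold and 2 were lower, with a median log2 ratio of 0.02. Past 2-fold were thus 42.9% of the 7, beside 15.4% of all genes. C1qa, a complement component made by macrophages, was 2.28-fold higher, while Lyz2, the myeloid lysozyme, had a log2 ratio of -3.41 and Vcam1, an adhesion molecule, had -2.88 at the probe of higher signal and -1.03 at its second probe. The defining markers Cd163, Mrc1, C1qc, Mertk and Timd4 were not above background on either array. Adgre1, the F4/80 antigen, read 13.6 in WT and 16.4 in ESAM-KO at its brighter probe, was above background in ESAM-KO alone, as Ctss was, and has no ratio because the bound was under 1-fold. The summed level of the 8 macrophage markers above background on at least 1 array was 35.8 in WT and 31.5 in ESAM-KO, or 3.22 and 2.34 without Csf1r, the brightest. Csf1r had a log2 ratio of -0.16 at the probe summed here and 0.66 at a dimmer probe, so its probes disagreed in direction. Of 9 dendritic and antigen-presenting cell markers, 8 had a ratio, of which 2 were lower and 0 higher past 2-fold (25%). The 2 lower ones were H2-Aa, a chain of MHC class II, with a log2 ratio of -2.08, and Cd74, the invariant chain itself, with -1.36. H2-Aa read 19.3 in ESAM-KO, where the lowest intensity above background was 13.2. The other MHC class II chains of the list lay within 2-fold, H2-Ab1 at -0.26 and -0.28 by its 2 probes and H2-Eb1 at 0.23. Ciita had a log2 ratio of 0.10. The summed level of that list was 43.6 in WT and 40.8 in ESAM-KO, or 9.07 and 7.45 without Siglech, the brightest, and Itgax was not above background on either array. The part of these cells in the Ctss result was not tested.

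Ctsk (NM_007802), the collagen-degrading cathepsin of osteoclasts, read 3.16 in WT and 3.41 in ESAM-KO, neither above background, so that no ratio is given. Of 7 osteoclast markers, 5 had a ratio, of which 1 was lower past 2-fold and 0 higher (20%, beside 15.4% of all genes). The lower one, the matrix protease Mmp9, which neutrophils also make, was above background on the WT array alone. Acp5, the tartrate-resistant acid phosphatase, had a log2 ratio of -0.67. The osteoclast list summed to 7.28 in WT and 7.42 in ESAM-KO, or 3.59 and 2.05 without Oscar, the brightest, and its markers Dcstamp and Calcr were not above background on either.

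**Figure D3:**
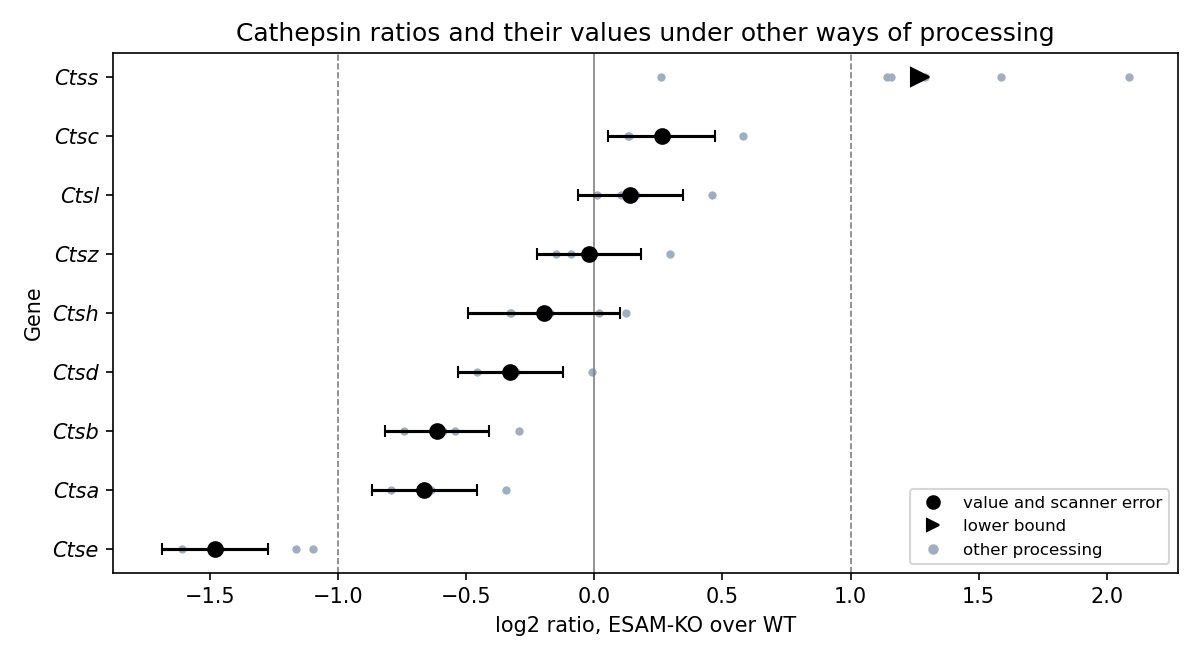
Log2 ratio of ESAM-KO over WT for the 9 cathepsins with a ratio, as the value used here with the scanner software's error as bars and small marks for the same ratio under the other ways of processing. The marks of Ctse lie between -1.61 and -1.10, those of Ctss spread from 0.26 to 2.09, and those of Ctsh and Ctsz fall on both sides of 0.

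Ctsh, Ctsz and Ctsc, cysteine proteases that trim the ends of proteins, lay within 2-fold. Ctsh (NM_007801), an aminopeptidase, read 29.0 ± 4.14 in WT and 31.6 ± 4.68 in ESAM-KO. Its scaled log2 ratio was -0.20 with a scanner error of 0.30, and it was 0.12 without scaling and 0.02 with normexp and quantile normalization, so no direction can be given. Ctsz (NM_022325), a carboxypeptidase, read 1488 ± 149 and 1828 ± 183, and its scaled log2 ratio was -0.02 and 0.30 without scaling. Ctsz was the member nearest to 0, with 48.4% of all genes at a lower ratio.

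Ctsc (NM_009982), the dipeptidyl peptidase that activates the serine proteases of granulocyte, mast cell and lymphocyte granules, read 136 ± 13.96 in WT and 203 ± 20.6 in ESAM-KO. Its log2 ratio of 0.26 was the highest among the members above background on both arrays, and it stayed between 0.13 and 0.58 under the alternatives. Genes for granule proteases went both ways. Elane, neutrophil elastase, had a log2 ratio of -3.30, Prtn3, proteinase 3, one of -1.64, and Ctsg, cathepsin G, one of -4.68, while Gzmb, granzyme B, lay within 2-fold at -0.44. Tpsb2, a mast cell tryptase, had log2 ratios of 0.77 and 0.996 at its 2 probes, both within 2-fold, and Cma1, a mast cell chymase, was not above background on either array. These genes were picked for their known relation to Ctsc. Of the 11 neutrophil and granulocyte progenitor markers, 9 were lower past 2-fold and 0 higher (81.8%, beside 15.4% of all genes). The list median was -3.30. The 3 with the lowest ratios were Ctsg, Ltf (lactoferrin, -4.20) and Mpo (myeloperoxidase, -3.82). The summed level of that list was 878 in WT and 664 in ESAM-KO, or 499 and 337 without Itgam, the brightest. Itgam and Csf3r lay within 2-fold at the probe that represents each, but dimmer Itgam probes had log2 ratios of -1.54 and -0.55. Without Itgam and Csf3r, the other 9 markers summed to 249.5 in WT and 35.7 in ESAM-KO. Their part in the Ctsc result was not tested.

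Ctsa (NM_008906), known as protective protein because it shields other lysosomal enzymes from degradation, read 1129 ± 113 in WT and 889 ± 88.9 in ESAM-KO. This was a log2 ratio of -0.66, or 1.58-fold lower, with a scanner error of 0.20. A second Ctsa probe read 3.25 and 8.92, neither of them above background. Ctsa holds a complex with beta-galactosidase and the sialidase Neu1. Glb1, the beta-galactosidase, read 402 in WT and 234 in ESAM-KO and was 2.14-fold lower, past the threshold that Ctsa did not reach. Neu1 read 53.9 and 49.2, a log2 ratio of -0.45. Galns, a sulfatase of the same complex, had a log2 ratio of 0.18.

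The other cathepsins on the array were mostly not above background. Of these 13 genes, 5 had a ratio, with a median of -0.56. Past 2-fold, 2 were lower and 0 higher (40%, beside 15.4% of all genes). Ctsg, a serine protease of neutrophil granules rather than of lysosomes, read 1373 in WT and 66.6 in ESAM-KO and was 25.7-fold lower. Ctsf, a papain-family lysosomal endoprotease, read 574 and 98.9 and was 7.24-fold lower. Its log2 ratio of -2.86 was below that of every one of the 9 cathepsins listed at the outset with a ratio, Ctse included. The remaining 3, Ctso, Ctsr and Ctsw, had log2 ratios of 0.08, 0.33 (a bound) and -0.56.

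Inhibitors of cathepsins were lower or within 2-fold. Of 15 genes, 9 had a ratio, and 3 were lower past 2-fold and 0 higher (33.3%, beside 15.4% of all genes). The 9 ratios were below 0 with a median of -0.93, beside 49.9% of all genes below 0. Serpinb1a, which inhibits elastase, proteinase 3 and cathepsin G, read 672 in WT and 51.3 in ESAM-KO and was 16.3-fold lower. The stefins Stfa2 and Stfa2l1, cytosolic inhibitors of cysteine cathepsins, were above background in WT alone, and lower by at least 22.9-fold (Stfa2) and 6.79-fold (Stfa2l1). Stfa1 and Stfa3 were dim on both arrays and lay within 2-fold, with log2 ratios of -0.93 and -0.34. The stefin genes are near-identical copies, so signal may be shared between their probes. The inhibitors of wider expression differed less, with log2 ratios of -0.14 for Cst3 (cystatin C), -0.60 for Cstb (cystatin B) and -0.47 for Cst7 (cystatin F). Stefins and Serpinb1a are also abundant in neutrophils, whose markers were lower as given above, and the part of those cells in this result was not tested.

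Enzymes that activate cathepsins or work beside them moved in both directions. Of the 10 genes of this list, 9 had a ratio, with a median of -0.45. Past 2-fold, 1 was higher and 2 were lower (33.3%, beside 15.4% of all genes). Lgmn, the legumain that processes several cysteine cathepsins, was not above background in WT, where it read 9.77, and read 36.0 in ESAM-KO, which made it at least 2.30-fold higher. Tpp1, a tripeptidyl peptidase, was 2.02-fold lower. Psap, the precursor of the saposins, had a log2 ratio of -0.96 and stayed just within 2-fold.

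The machinery that carries cathepsins to the lysosome lay around 0. Of 15 sorting genes, 1 was higher past 2-fold and 0 lower (6.67%, beside 15.4% of all genes), with a median of -0.04. M6pr, the cation-dependent mannose 6-phosphate receptor, had log2 ratios of -0.73 and -0.84 at its 2 probes. Igf2r, the other mannose 6-phosphate receptor, was present as 10 spots and had a log2 ratio of 0.09 with an SD over spots of 0.07. Sort1, the sortilin receptor, was 2.64-fold higher by the probe of higher signal, but the log2 ratio of its second probe was -0.43, so its probes disagreed in direction.

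Of the lysosomal membrane genes with a ratio, 16.7% were past 2-fold, beside 15.4% of all genes. This share was 9.52% for the hydrolases that do not cut proteins and 6.25% for the proton pump. Of 12 membrane genes, 1 was higher and 1 lower, with a median of -0.19. The higher one was Mcoln1, a cation channel, with a log2 ratio of 1.104, and the lower one Ctns, the cystine exporter, with -1.05. The abundant membrane protein genes Lamp1 and Lamp2 had log2 ratios of 0.10 and -0.52. Of 21 glycosidase and lipase genes with a ratio, Pla2g15, a phospholipase, was higher (at least 2.58-fold) and Fuca1, a fucosidase, was lower (2.003-fold), with a list median of -0.15. Of 16 proton pump genes, Atp6v1h was higher, with a log2 ratio of 1.17, and 0 were lower, with a median of 0.05.

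The regulators of lysosomal genes included factors on both sides. Tfeb, a transcription factor that binds the E-box CACGTG marked in the Ctsd and Ctsa windows, read 32.8 in WT and 114.6 in ESAM-KO and was 2.80-fold higher. Tfe3, its relative, read 3535 and 2027 and was 2.17-fold lower, with log2 ratios of -1.12 and -1.08 at its 2 probes. Tfec, a further relative, was above background on the WT array alone and at least 2.11-fold lower. Zkscan3, a repressor of lysosomal and autophagy genes, was 2.02-fold higher. Ctsa, Ctsd and Ctsl, whose windows hold the motif, had log2 ratios of -0.66, -0.33 and 0.14. Of the 11 regulators, 2 were higher and 2 lower past 2-fold (36.4%, beside 15.4% of all genes), with a median of -0.18.

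Over these 8 lists together, 98 genes had a ratio, of which 7 were higher and 11 lower past 2-fold (18.4%, beside 15.4% of all genes). The median log2 ratio was -0.18, close to the -0.20 of the cathepsins, with 62 genes below 0 and 36 above. With normexp and quantile normalization together 7 of them were past 2-fold in place of 18.

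**Figure D4:**
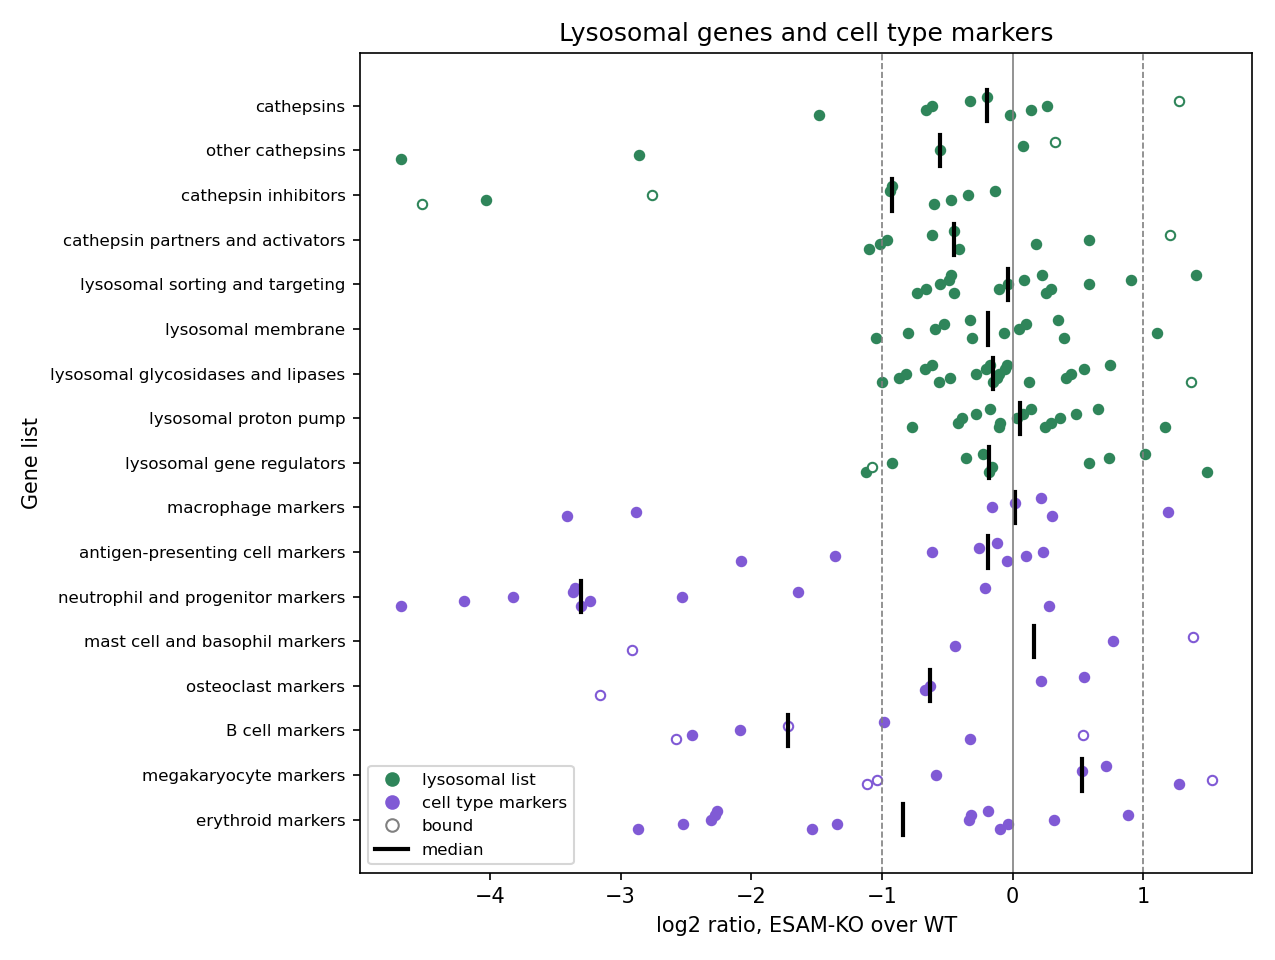
Log2 ratio (ESAM-KO over WT) of each gene in the cathepsin list, the 8 lysosomal lists and the cell type marker lists, 1 row per list, with open circles for bounds, the list's median as a bar and dashed lines at 2-fold. The neutrophil row lies far to the left with a median of -3.30, the erythroid row has a median of -0.84, and the medians of the sorting, membrane, hydrolase and proton pump rows lie between -0.19 and 0.05.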

How the data were processed

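Pre CFU-E RNA, pooled from 3 mice per genotype, was amplified with a whole transcriptome kit and hybridised to 1 Agilent mouse array each; both arrays shared a slide and a scan. The authors deposited the intensity of every spot from Agilent Feature Extraction 10.10.1.1, background-subtracted within the array and not scaled between arrays. Control spots and 254 outlier spots were left out. Log2 intensities minus the array's 75th percentile were averaged over the spots of a probe, and a probe was above background if its flag was set on over 50% of its spots. Where this held on 1 array, the ratio is a bound against the higher of the dim reading and the lowest level above background. Such a bound leaves out the error of the spots. Accessions were matched to RefSeq symbols (GRCm38.p6), which named 48.9% of the 55681 probes. The probe of highest mean signal represents a gene. The members and gene lists were chosen with earlier results of these data known, and the motifs after the members' windows had been seen. Genes named are the members, Esam, Gata1, Klf1, Epor, Alas2, at most the 3 highest and 3 lowest of a list past 2-fold, defining markers, and, picked for their roles or after their values were seen, the remaining genes given with values. The 2-fold criterion is that of the study's methods. Cd68, Ly6g and Serpina3g of the lists were not matched by name, and single values of some list genes are not reported here.

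Alternatives were other scalings, quantile normalization, normexp with an offset of 50 on median spot signals (the files hold no mean), the series table, outlier spots kept, other filters, the mean of probes, and thresholds of 1.5-fold and 3-fold. The counting was tested on simulated data. Python 3.11.15, numpy 2.4.6, pandas 2.3.3, matplotlib 3.10.9, R 4.3.3 and limma 3.58.1 were used. The number of arrays limits the precision.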

Additional observations from a re-analysis of the deposited data

How the results depend on the processing

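No paired analysis was possible because there is 1 array for WT and 1 for ESAM-KO. The scanner error does not cover the pool, the sort or the amplification, and dim spots such as Ctss carry the widest error. Without scaling, the median of all genes was 0.31, the cathepsin median was 0.12 in place of -0.20, Ctse was at -1.16 and Ctss at 1.59. With normexp and quantile normalization, Ctse was at -1.10 and Ctss at 0.26, so that 0 cathepsins were higher and 1 was past 2-fold in all, with 722 of all genes and 7 pathway genes past 2-fold in place of 2179 and 18. Without a filter on dim probes, Ctss was at 2.09 and 4108 genes were past 2-fold. With genes above background on both arrays alone, 0 cathepsins were higher and 1 was past 2-fold. At 1.5-fold, 4 cathepsins were past the threshold, 3 of them lower, with 39 pathway genes and 4694 of all genes (33.2%). At 3-fold, 0 cathepsins were higher, 0 lower and 0 past in all, with 5 pathway genes and 821 of all genes (5.81%). The lower share of the genes past 2-fold was 54.7%, beside 66.8% with median scaling, 67.3% with normexp and 28.8% on unscaled values. Median scaling put the median of all genes at -0.13. Of the members' 89 values under alternatives, 77 moved by less than the scanner error of the member (for Ctss, that of its ESAM-KO spot alone, since its ratio is a bound) and 12 by more, and 0 of the values past 2-fold changed sign. For the list medians, set against the members' median scanner error, these counts were 133 and 27 of 160. Several settings, such as outlier spots kept, could not change a bright member with 1 usable probe, so the counts do not measure stability. Leaving out the scaling moved every member with a ratio by more than that error. The cause of these changes was not tested.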

Other observations

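Markers of other lineages differed between the arrays beside the cathepsins. Of the 8 B cell markers, 7 had a ratio, and 4 were lower past 2-fold and 0 higher (57.1%, beside 15.4% of all genes). Igll1 and Ebf1 among the lower ones are bounds, above background in WT alone. The median log2 ratio was -1.72, and the summed level of the list was 2.90 in WT and 0.915 in ESAM-KO. Vpreb1, part of the surrogate light chain of early B cells, read 256 and 58.2, and Cd79b, a signalling chain of the B cell receptor, read 67.8 and 19.8. Of the 7 megakaryocyte markers, 2 were higher and 2 lower past 2-fold (57.1%), with a median of 0.53. Among those past 2-fold, Gp1ba, Gp9 and Ppbp are bounds, and Vwf, von Willebrand factor, was 2.42-fold higher. Of the 9 mast cell and basophil markers, 4 had a ratio, 1 was higher and 1 lower past 2-fold (50%), and the median was 0.16. The mast cell and basophil markers past 2-fold, Ms4a2 and Prss34, are bounds.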
